A study of Homo sapiens with 2 samples.

Results

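Short internal exons of listed transcripts are the subject here. They are the exons that lie between the first and the last listed exon of a transcript and hold 1 to 5 windows of the deposited table. Windows are 100 nt long and placed every 50 nt, so such exons run up to about 250 nt. Most internal exons of human genes are of this order of size. No rule asked for protein-coding genes, so exons of non-coding genes such as ASMTL-AS1 are included. The members were found by taking the longest transcript listing of each gene name, keeping genes whose mean scaled input coverage was at least 1, and keeping the windows of internal exons with at most 5 windows. This gave 242130 windows in 82921 exons of 8846 genes, 34.3% of the 705372 windows of the 10767 genes that met the input minimum and part of 1983959 windows in all. The gene's mean input chose the members together with exon place and size, and the size limit was proposed with the enrichment of these exons already known, so the shares given are descriptions and no test was made of them.

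The cells were GM12878, an established lymphoblastoid line of human B cells immortalised by Epstein-Barr virus, grown in RPMI medium with serum, and the labels name no treatment. Total RNA was fragmented, and 1 library was made from the unselected fragments (the input) and 1 from fragments bound by an antibody against N6-methyladenosine (the IP). The question the design puts is where along transcripts the antibody recovers more RNA than the input holds. With 1 library of each kind there is no replicate check, no SD and no p-value. Intervals cover counting error only, and since neighbouring windows overlap and reads can be PCR copies, they are too narrow.

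N6-methyladenosine (m6A) is the most common internal modification of messenger RNA. It is placed in the nucleus by a complex built around METTL3 and METTL14, with WTAP, VIRMA, ZC3H13, CBLL1 and RBM15 as further subunits, at adenosines within a short consensus sequence. YTH domain proteins read it, and FTO and ALKBH5 can remove it. After splicing, exon junction complexes with EIF4A3, MAGOH and RBM8A at their core sit near exon-exon junctions, and from work in other systems they are known to keep RNA close to junctions from being methylated. m6A is accordingly known to be concentrated in long internal exons and around stop codons. These statements are background and were not measured here.

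Over the kept listings, coverage was equivalent to 54.1 M input reads and 59.1 M IP reads. A scaled coverage of 1 in a window equals 15.8 reads in the input and 10.04 in the IP. All 12 B cell markers met the input minimum, at a mean input of 3.0 (EBF1) to 775 (CD74). None (0) of 8 pluripotency markers did, the highest being SOX2 at 0.153, although the source given in the labels is embryonic stem cells of the mouse, against the organism and the cell line given beside it. Of 7 T cell markers 3 did, with TCF7 at 14.4, LCK at 8.28, CD3E at 1.52 and CD3D at 0. Of 5 myeloid markers 1 did (ITGAM, 1.12) and of 6 fibroblast markers 1 (THY1, 1.69).

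The window score is on a log2 scale. It divides the IP by the gene's median IP and the input by the gene's median input, after adding 1 to all 4 numbers, and takes the ratio of both. A score of 2 is therefore a ratio of IP to input 4 times that of the gene's medians, with 1 added to each number. In short internal exons 193 of 242130 windows reached 2 (0.0797%, exact 95% interval 0.0689 to 0.0918), against 5.75% of all windows of the same set of genes. These 193 windows lay in 119 exons of 117 genes, 0.144% of the short internal exons (0.119 to 0.172), against 5.79% of all exons. Where the input was at least 5, 0.126% of 71605 windows did (0.101 to 0.154), against 8.6% of all windows with such an input. Over all 242130 windows the share was 0.397% with 0.1 added in place of 1, and 0.0219% with 5 added. The scores were narrowly spread around 0, with a median of -0.06, quartiles of -0.38 and 0.24, and 94.3% of windows between -1 and 1. The 1st and 99th percentiles were -1.50 and 1.14. Short internal exons made up a median of 36.1% of the windows of their gene (quartiles 20% and 55%), so they contribute to the gene medians on which they are centred, and a score near 0 says that they resemble the bulk of their gene.

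At the input limit, 239 genes with a mean input from 1 to 1.1 had 3 of 5678 short internal exon windows at 2 or more, with a median score of -0.04. The 238 genes with a mean input from 0.9 to 1, just outside, had 4 of 6320, also with a median of -0.04. Genes sorted into 4 groups by mean input had shares whose counting intervals overlapped. From the lowest input to the highest the share was 0.0737% (0.0533 to 0.0992), 0.0771%, 0.0890% and 0.0780% (0.0560 to 0.106).

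**Figure D1:**
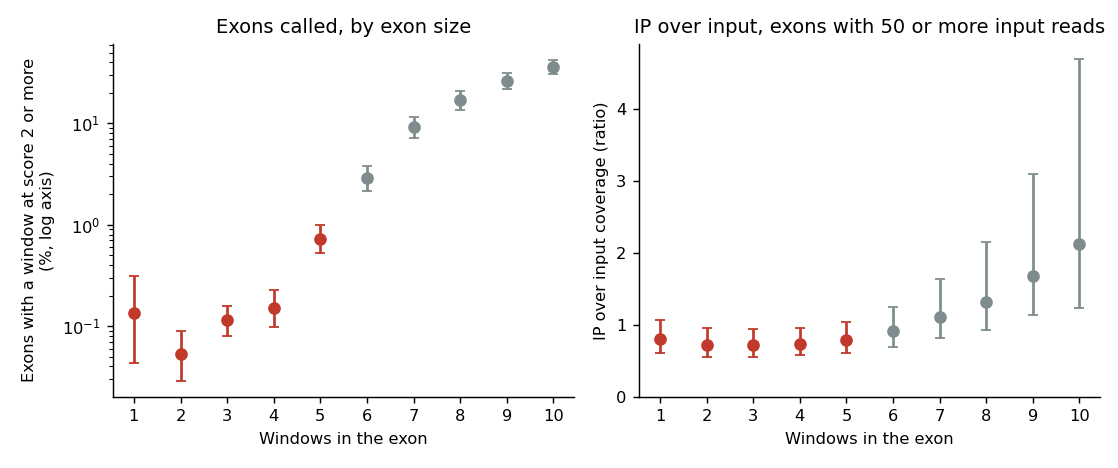
Internal exons by number of windows, short ones (1 to 5 windows) in red and longer ones in grey. Left, the percentage of exons with a window at a score of 2 or more on a log axis, with exact 95% intervals; right, the median IP over input coverage of exons with at least 50 input reads, with bars from the lower to the upper quartile. The share goes from 0.0528% at 2 windows to 0.728% at 5, 2.87% at 6 and 36.3% at 10, and the ratio from 0.721 to 2.13.

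Enrichment was rare at every size up to 5 windows and most frequent at 5. Taken per exon, a window at 2 or more was present in 0.133% of 3754 exons of 1 window (0.0433 to 0.311), 0.0528% of 26517 exons of 2, 0.114% of 30751 exons of 3 and 0.152% of 16406 exons of 4. It was present in 0.728% of 5493 exons of 5 windows (0.521 to 0.990). Exons of 6 windows, just outside the limit, stood at 2.87% of 1776 (2.15 to 3.76), and those of 7 at 9.28%. The intervals of 5 and 6 windows do not overlap, and nor do those of 4 and 5, so the share was already rising at the limit of 5 windows.

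A rise from 3 windows on was also seen in the plain ratio of IP to input coverage, which uses neither the gene median nor the added 1. This ratio was taken in exons with at least 50 input reads, counted in windows that do not overlap. These were 446 of 3754 exons of 1 window, 11607 of 26517 exons of 2 and 5015 of 5493 exons of 5. The medians at the smallest sizes thus describe the better covered exons only. How the libraries were scaled to each other is not known here, so the ratio is compared between exons and not with 1. Its median was 0.80 in exons of 1 window (0.757 to 0.835), 0.721 in those of 2, 0.720 in those of 3, 0.740 at 4 windows and 0.795 at 5 (0.784 to 0.805). At 6 windows it was 0.920 (0.893 to 0.944). It reached 3.66 in internal exons of 11 to 20 windows and 4.43 beyond that, while the longer terminal exon of a gene had 1.61. A ratio of 4 or more was found in 78 of 52605 short internal exons (0.148%, 0.117 to 0.185), against 5.01% of all exons with at least 50 input reads.

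Lower coverage at the ends of short exons bears on the score, since the added 1 shrinks scores where coverage is low. In exons of 4 windows the median input was 4.69, 5.36, 3.07 and 0.541 in windows 1 to 4, and the median IP 3.49, 4.01, 2.28 and 0.390. Windows start every 50 nt from one end of the exon, and the last ones run past its other end, where listed exon sequence stops. Windows were therefore also counted without the last 2 of each exon, where the median input of short internal exons was 4.84. Of these, 82 of 80042 reached 2 (0.102%, 0.0815 to 0.127). In exons of 6 windows, at a median input of 5.06, 1.55% did (1.27 to 1.86).

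Windows at the same distance from an exon edge also differed with the size of the exon. The first window, which starts at the edge, reached 2 in 0.0798% of short internal exons of 3 to 5 windows (0.0575 to 0.108), at a median input of 4.61. It did so in 3.30% of internal exons of 6 to 10 windows (2.73 to 3.94, median input 4.07). For 11 to 20 windows the share was 11.1% (9.29 to 13.2, median input 3.37). For the third window the shares were 0.364% in short internal exons of 5 windows (0.223 to 0.562), 6.39% and 27.2%. The median input at both places was higher in the short exons than in either longer class.

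**Figure D2:**
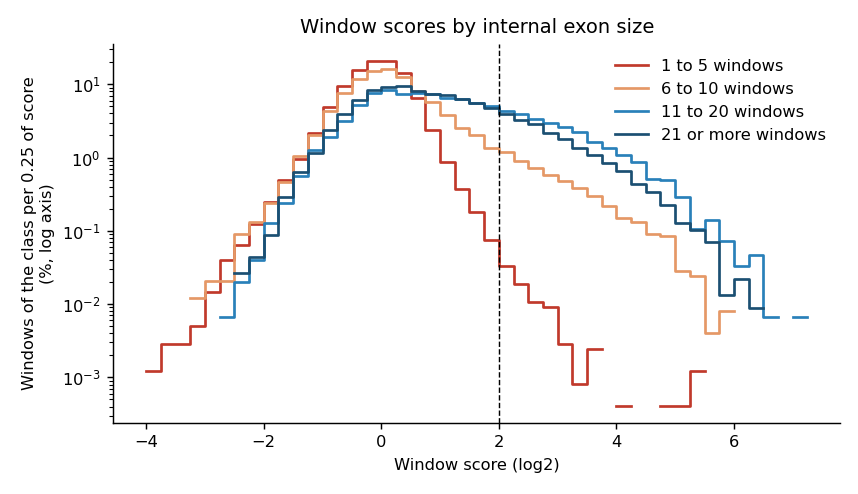
Distribution of window scores (log2) in internal exons of 4 size classes, as the percentage of the windows of each class per 0.25 of score on a log axis; the dashed line marks a score of 2. Above 1 the short internal exons (1 to 5 windows) fall away from the longer classes, to 0.0797% at 2 or more against 5.29%, 26.0% and 19.2% in the longer classes.

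At the low end, 619 windows of short internal exons (0.256%) scored -2 or less, against 0.329% of all windows. They came from 178 genes. Their own log2 ratio of IP to input, without centring, had a median of -0.53, while 569 of the 619 lay in genes whose median IP was at least 2 times the median input, with 1 added to each. Without centring 5 of the 619 stayed at -2 or less. TNFRSF8, which encodes the activation antigen CD30, contributed most (38 windows, chosen after its values were seen), with a median score of -2.93 in its 13 short internal exons. Their median IP was 7.06 and input 13.3, while over the whole gene the medians were 96.2 and 15.2. MKI67, which encodes the proliferation antigen Ki-67, was similar at a median score of -1.74, with gene medians of 84.5 and 23.7 and 12 windows at -2 or less. The plain IP over input of the short exons was 0.801 in TNFRSF8 and 1.98 in MKI67, against a median of 0.733 over short internal exons, so neither gene was low before centring.

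The 119 exons with a window at 2 or more were mostly just past the threshold. Their highest window scored 2 to 2.5 in 81 exons, 2.5 to 3 in 26, 3 to 4 in 10 and 4 or more in 2. One window reached 2 in 70 exons, 2 or more did in 49, and every window of the exon did in 15. Taken over the whole exon the median IP over input was 4.02, from 0.921 in exon 51 of ITPR1, a calcium channel of the endoplasmic reticulum, to 37.9 in exon 2 of OGDH. At the highest window the input lay below the gene's median in 42 exons and below 50% of it in 19, and in 2 the IP did not exceed the gene's median. Of the 119, 4 repeat each other under another name (TMEM248 as C7orf42, and CSNK1G1 as CTD-2116N17.1), which leaves 117 distinct exons. Exons are numbered as in the table, where exon 1 was the longer end in 47.7% of genes and the highest-numbered exon in 50.1%, so the numbers follow the genome and not the direction of transcription.

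OGDH, the E1 subunit of the 2-oxoglutarate dehydrogenase complex of the citric acid cycle, held the highest value. Its exon 2 had an input of 4.03, 7.27, 9.03, 12.6 and 8.22 in windows 1 to 5 and an IP of 177, 294, 380, 474 and 249. The scores were 5.26, 5.27, 5.36, 5.24 and 4.87, and the ratio over the exon was 37.9 (95% counting interval 33.9 to 42.3). The IP exceeded the input in each window by a similar factor. In exon 3, also short, the enrichment fell with distance from exon 2, with scores of 3.07, 2.37, 1.38 and 0.49.

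ORMDL1, a regulator of sphingolipid synthesis, rose along its exon 4 instead. The input was 4.99, 5.25 and 6.37 and the IP 10.8, 48.1 and 89.6, which gave scores of 1.52, 3.51 and 4.16. Both neighbouring exons stayed low, with highest scores of 0.63 and 0.54. BIVM-ERCC5, a read-through transcript that includes ERCC5, the XPG endonuclease of nucleotide excision repair, was enriched in all 5 windows of its exon 9. The IP there was 28.5, 42.5, 21.8, 44.7 and 77.1 and the input 1.97, 2.81, 2.19, 2.94 and 3.11, for scores of 2.79, 3.0, 2.33, 3.02 and 3.73. BIVM and ERCC5 are also listed under their own names, where no short internal exon had a window at 2 or more. Whether this stretch lies in an end exon or a longer exon there was not tested.

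WTAP, the regulatory subunit of the m6A methyltransferase itself, was the highest among the genes of the m6A machinery. Its exon 6 had an input of 11.3, 16, 19.3 and 12.7 and an IP of 27.0, 124, 214.5 and 231. The scores were 0.64, 2.33, 2.86 and 3.53, and the ratio over the exon 7.90 (7.17 to 8.74). The exons before and after it reached -0.62 and 0.83. HSH2D, a haematopoietic adaptor with an SH2 domain, had an input of 46.5, 39.4, 26.4 and 25.2 and an IP of 174, 177, 463 and 541 in its exon 8, with scores of 1.05, 1.31, 3.25 and 3.54. The long exon next to it was enriched too, at 3.35 in its facing window.

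**Figure D3:**
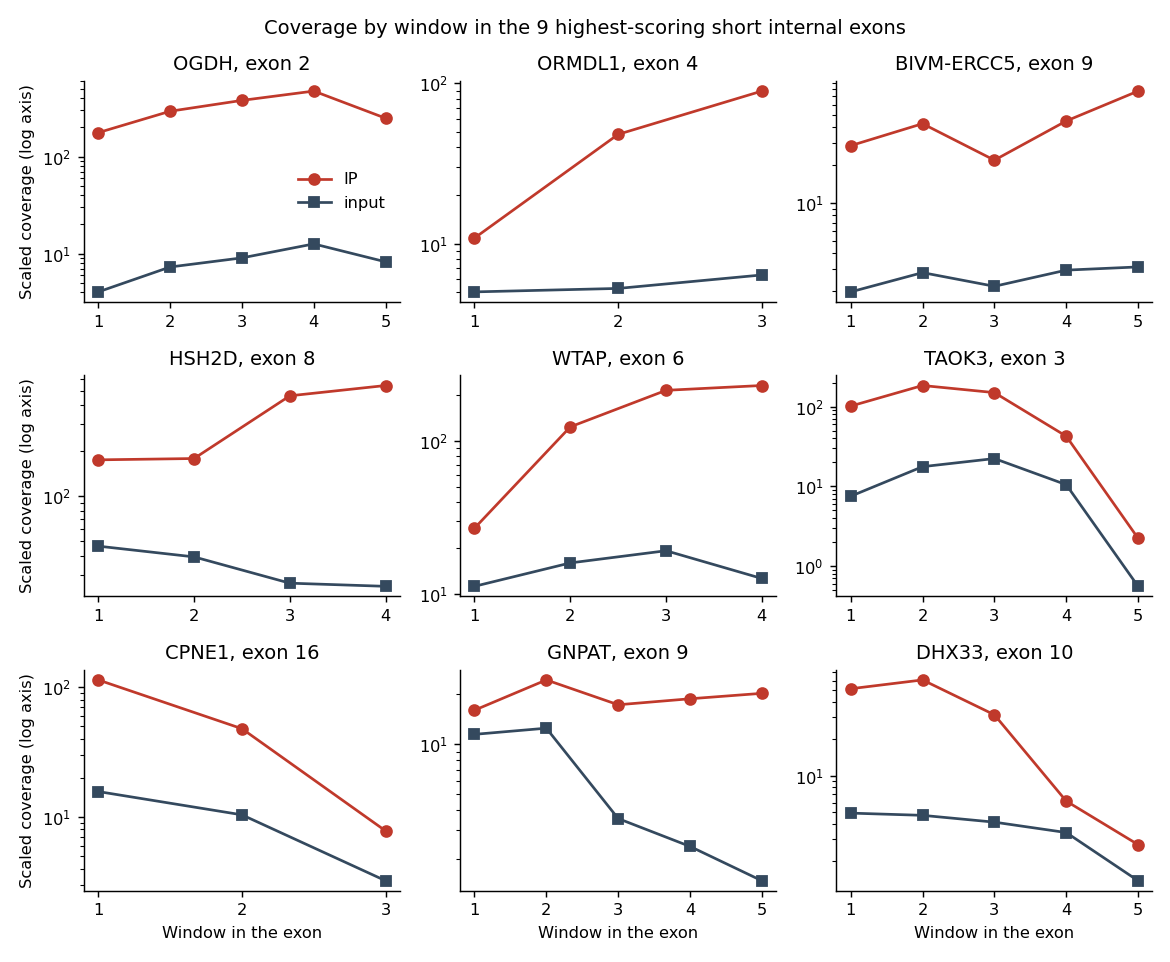
Scaled coverage of IP (red circles) and input (dark squares) in each window of the 9 short internal exons with the highest scores, at most 1 exon a gene; the log axis has its own range in each panel. IP lies above input in every window shown, evenly in OGDH, increasingly toward the last window in ORMDL1 and WTAP, and mostly in the first windows in DHX33 and CPNE1. In GNPAT the input drops toward the last window while the IP stays similar.

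In TAOK3, a kinase of the STE20 family, CPNE1, a calcium-dependent phospholipid-binding copine, and DHX33, a DEAH-box helicase, the enrichment sat in the first windows. TAOK3 exon 3 scored 3.51, 3.23, 2.62, 1.85 and 0.98, with an IP of 183 against an input of 17.6 in window 2. CPNE1 exon 16 scored 3.50, 2.82 and 1.78. DHX33 exon 10 scored 3.13, 3.41, 2.64, 0.68 and 0.63, with an IP of 60.7 against 4.72 in window 2. GNPAT, which starts ether lipid synthesis in peroxisomes, reached 3.45 in the last window of exon 9. There the IP of 20.3 was like that of the other windows (16.1 to 24.5) while the input fell from 12.5 to 1.48, so the higher score came with a lower input.

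The other exons named by the same rule scored 2.89 to 3.08. They were in PPP2R5A, a regulatory subunit of protein phosphatase 2A (3.08), TRAPPC2, of the TRAPP vesicle-tethering complex (3.0), AGXT2L2 (2.97), AFF1, of the super elongation complex (2.93), MSL1, of a histone acetyltransferase complex (2.92), and TBCK (2.89). The exon of AFF1 holds 1 window, with an input of 1.89 and an IP of 19.2 (ratio 10.1, 6.86 to 15.4), beside a facing window at 3.51. The highest windows of PPP2R5A and TRAPPC2 rest on 19.6 and 18.3 input reads, and their ratios have intervals of 7.87 to 21.1 and 5.47 to 15.9. With 5 added in place of 1, the scores of PPP2R5A, TRAPPC2 and AFF1 were 1.82, 1.52 and 1.89, under 2.

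Several of the highest exons had a last window with over 50% of the input of their highest window, although at most 50 nt of it lie in the listed exon. In short internal exons of 3 or more windows with an input of at least 1, the last window held a median of 10.9% of the input of the highest window (quartiles 4.22% and 24.97%). It held 100% in ORMDL1 and BIVM-ERCC5, 76.5% in AGXT2L2, 65.9% in WTAP, 65.3% in OGDH and 54.1% in HSH2D. A last window at 50% or more was found in 22 of 98 exons with a window at 2 or more (22.4%, 14.6 to 31.99) and in 7.43% of 49874 without (7.21 to 7.67). Of the 3730 exons with such a last window 0.590% had a window at 2 or more (0.370 to 0.892), and of the other 46242 exons 0.164% (0.130 to 0.206). Whether such windows hold reads past the listed end or uneven coverage within the exon was not tested. This comparison and the next were added after the values had been seen.

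The same was asked of the other transcript listings of a gene, by looking for windows with the same coverage in both libraries. Of 62 exons with a window at 2 or more in genes with other listings, 5 were listed there as an end exon (8.06%, 2.67 to 17.8), against 0.848% of 39149 exons without (0.760 to 0.944). The 5 were WTAP exon 6, RNF213 exon 17, ASMTL-AS1 exon 4, NFAT5 exon 15 and TRAK1 exon 14. None (0) of the 62 was listed as an internal exon of more than 5 windows, with an exact upper limit of 5.78%. A match needs a shared left edge, so alternative exons that share only the right edge were not seen. Listings under another gene name were not searched, so the separate genes of read-through names such as BIVM-ERCC5 were not compared.

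Short internal exons were enriched far more often where the neighbouring exon was enriched up to the shared junction. An RNA fragment can span a junction and so carry coverage into both exons, and the part of this in the values was not tested. Where the facing window of an adjacent exon scored 2 or more, 42 of 609 short internal exons had a window at 2 or more (6.90%, 5.02 to 9.21), and where it scored 3 or more, 25 of 158 (15.8%, 10.5 to 22.5). Where a neighbour reached 2 elsewhere but not at its facing edge, 14 of 5310 did (0.264%, 0.144 to 0.442). For a neighbour on the left the facing window is its last one, which is thinly covered. In internal exons of 4 windows its median input was 0.541, at which the added 1 holds scores down. This group can therefore include neighbours enriched close to the junction, and how many was not tested. Where the highest window of the neighbours scored 1 to 2, 27 of 7500 did (0.36%, 0.237 to 0.523), an interval that overlaps the one before. With every window of both neighbours below 1, 36 of 69502 did (0.0518%, 0.0363 to 0.0717). The median IP over input went from 0.708 with both neighbours below 1 to 1.52 beside an enriched edge and 1.96 beside an edge at 3 or more. The rule for grouping reads the same score as the outcome, in another exon of the same gene.

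**Figure D4:**
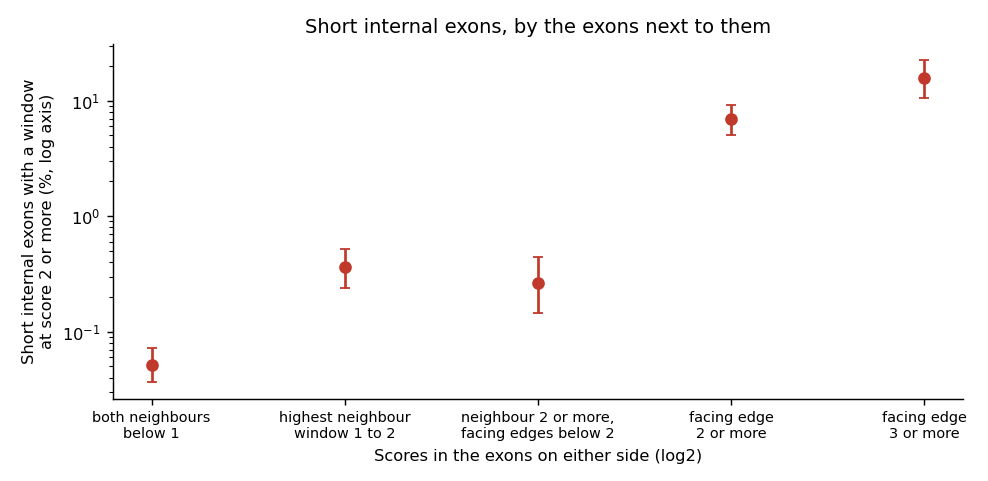
Percentage of short internal exons with a window at a score of 2 or more (log axis, exact 95% intervals), grouped by the scores in the exons on either side; the last group is part of the one before it. The share is 0.0518% with both neighbours below 1 and 0.36% where their highest window is 1 to 2. It is 0.264% where a neighbour reaches 2 but not in its facing window, and 6.90% where the facing window does.

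Within such exons of 5 windows the median scores were higher on the side of the enriched neighbour, apart from the thinly covered last window. In 39 exons of 5 windows with the enriched edge on the right, the median scores of windows 1 to 5 were 0.24, 0.53, 0.74, 0.87 and 0.50. The median input of the last of these was 0.25, at which the added 1 holds scores down. In 13 exons of 5 windows with it on the left they were 0.90, 0.68, 0.28, 0.01 and 0.28. The order was less even in shorter exons. With the edge on the right the medians were 0.47, 0.60 and 0.40 in 184 exons of 3 windows. In 115 exons of 4 windows they were 0.41, 0.64, 0.78 and 0.37. With the edge on the left they were 0.64, 0.44 and 0.16 in 39 exons of 3 windows. In 42 exons of 4 windows they were 0.63, 0.30, 0.30 and 0.38. Exons beside an enriched edge included those of MSL1, IFIH1, WAPAL and CREB1, chosen after their values were seen. Not all of them scored highest toward that edge. Exon 3 of MSL1 reached 2.92 beside a facing window at 4.15. Exon 15 of IFIH1, which encodes the RNA sensor MDA5, reached 2.86 beside 2.25, but in its first window, away from that neighbour. Exon 16 of WAPAL, which releases cohesin from chromatin, had all 3 windows at 2 or more beside 4.07, with the highest score in window 2. Exon 8 of CREB1, a cyclic AMP-responsive transcription factor, reached 2.28 in window 2 of 4 beside 4.35.

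By place in the transcript, the share was highest next to the ends. Of the short internal exons next to an end exon 57 of 15748 had a window at 2 or more (0.362%, 0.274 to 0.469). The share was 0.170% of 13531 for the second exon from an end, 0.145% for the third, 0.0450% for the fourth and 0.0564% of 33684 farther inside (0.0340 to 0.0881). The median IP over input fell along the same order from 0.827 to 0.745, 0.722, 0.712 and 0.701. Exons beside the longer terminal exon had 0.407% (0.282 to 0.569) and those beside the shorter terminal exon alone 0.311% (0.197 to 0.466), which overlap in their intervals. Between short internal exons on both sides the share was 0.0555% of 61223.

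Within the same gene, short internal exons scored below long ones almost throughout. There were 1200 genes with at least 5 windows in short internal exons and an internal exon of 11 or more windows. The short exons had the lower median score in 1147 of them (95.6%, 94.3 to 96.7), and the lower IP over input in 1161. The median over genes was -0.18 for the short and 1.11 for the long internal exons, with a median difference of 1.46 (quartiles 0.82 and 2.03), and in 314 genes the difference was 2 or more. In windows, 51 of 49084 in the short exons reached 2 (0.104%) and 7593 of 33944 in the long ones (22.4%). The median of IP over input was 0.919 in the short and 4.21 in the long exons of these genes. Both kinds of exon share a gene's medians, so the count of 1147 genes is the same without centring by construction.

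**Figure D5:**
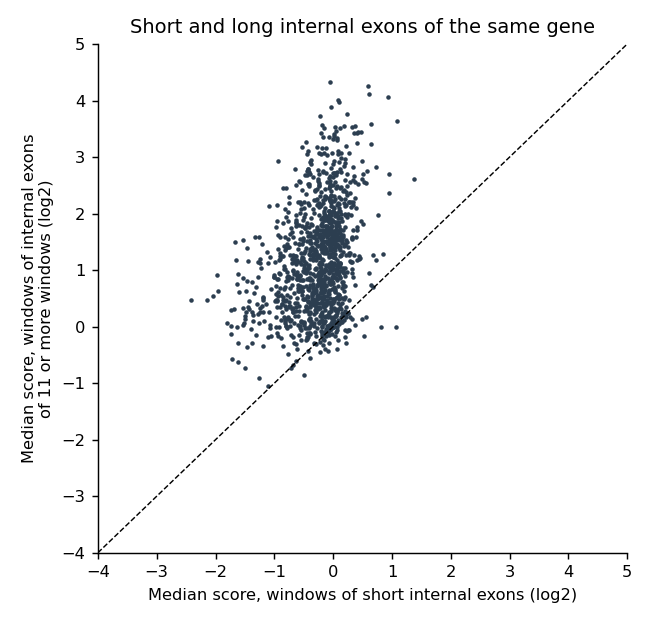
Median window score (log2) of long internal exons (11 or more windows) against that of short internal exons in the same gene, 1 point for each of 1200 genes; the dashed line marks equal values. Points lie above the line in 95.6% of genes, with a median of -0.18 in the short exons and 1.11 in the long ones.

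The gene with the widest gap was RSPRY1, whose short internal exons had a median score of -0.05 and a ratio of 0.923 against a mean score of 4.06 in its exon 2 of 11 windows. USP10, a deubiquitinase, had -0.23 against 3.65, with ratios of 1.02 over the short and 28.5 over the long internal exons. NR3C1, the glucocorticoid receptor, had -0.19 against 3.65, SETDB1, a histone H3 lysine 9 methyltransferase, -0.26 against 3.51, and CHAF1A, the large subunit of chromatin assembly factor 1, -0.46 against 3.31. GOLGA5, a golgin, had 0.10 against 3.84, ZCCHC6, a terminal uridylyltransferase, -0.47 against 3.07, and ST3GAL2, a sialyltransferase, -0.94 against 2.60. Of these 8 genes, RSPRY1 alone had a window at 2 or more in a short internal exon. It was in exon 3 (score 2.27), which adjoins the enriched exon 2, whose facing window scored 3.59.

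The 5 genes with most windows in short internal exons had none (0) at 2 or more in them, which at 296 to 371 windows a gene is near the 0.0797% of all such windows. SYNE2, the nuclear envelope protein nesprin-2, had most, with 371 windows in 105 short internal exons and a highest score of 1.15. UBR4, a ubiquitin ligase of the N-degron pathway, had 340 windows (93.2% of the gene) and a highest score of 0.85 at 16180 input reads, with an IP over input of 0.683. MDN1, an ATPase of ribosome assembly, reached 1.23 over 322 windows, HERC2, a ubiquitin ligase, 1.37 over 316 and MACF1, a cytoskeletal linker, 1.79 over 296. At the other end, among 8044 genes with at least 5 such windows, TMED7, a cargo receptor of the early secretory pathway, had the largest share at 2 or more, 2 of 5 windows, followed by ASMTL-AS1 with 2 of 6 and ZNF516 with 3 of 11. TMEM189 had 4 of 16 and ELK4, an ETS transcription factor, 2 of 8. ASMTL-AS1 is an antisense gene, and the labels describe a strand-specific kit but not whether the coverage used strand, so its reads and those of ASMTL cannot be told apart.

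Among the short internal exons of the m6A machinery, WTAP exon 6 was the only one with a window at 2 or more. It was 1 of 63 exons in the writer list, whose median window score was -0.36. These scores are relative to each gene's own medians. The median plain IP over input of the list was 0.888, against 0.733 over all short internal exons. METTL3, the catalytic subunit, had 27 windows with a median score of -0.12 and a highest of 0.89, and an IP over input of 0.886. METTL14, its RNA-binding partner, had a median of -0.44, METTL16, a separate methyltransferase, -0.06, VIRMA (listed as KIAA1429) -0.79, ZC3H13 -0.21 and CBLL1 0.09. In RBM15 the 3 windows of its 1 short internal exon had a median of -3.42, where the gene's median IP was 55.0 and that of the exon 1.25. The plain IP over input was 0.897 in METTL14, 0.822 in METTL16, 0.789 in VIRMA, 1.37 in ZC3H13 and 0.856 in CBLL1. In RBM15 it was 0.558, on 53.7 input reads. RBM15B had no such exon.

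None (0) of 81 short internal exons of erasers and readers had a window at 2 or more, a number too small to set apart from the 0.144% of all short internal exons. Their median window score was 0.13, against -0.06 over all short internal exons. Of their 217 windows 11 scored 1 or more (5.07%, against 1.58%). These lay only in IGF2BP3 exon 14, YTHDC1 exon 7, HNRNPC exon 2, FTO exon 7 and HNRNPA2B1 exon 6. Windows of an exon overlap and are not independent, so this share rests on few exons and does not set the list apart. The highest were IGF2BP3 at 1.92 in exon 14 and YTHDC1, the nuclear reader, at 1.71 in exon 7, where the IP over input was 2.45. The demethylase FTO had a median of 0.51 and ALKBH5 of -0.43. The cytoplasmic readers YTHDF1, YTHDF2 and YTHDF3 have 3 such windows each, with medians of -2.22, -2.36 and 0.68. Their gene medians differed, at 13.2, 37.9 and 2.29 in the IP and 3.94, 7.01 and 2.59 in the input. Without centring the medians were -0.70, -0.08 and 0.55. The plain IP over input was 0.381, 0.728 and 2.22, on 67.4, 67.8 and 20.6 input reads. YTHDC2 had a median of 0.10 over 83 windows, IGF2BP3 0.24, HNRNPC -0.01 and HNRNPA2B1 -0.04.

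Across the other gene lists, windows at 2 or more in short internal exons were rare, and their median scores lay between -0.25 and 0.02. Over all short internal exons 0.0797% of windows, 0.144% of exons and 117 of 8846 genes had a score of 2 or more, so a list with 1 such exon or none is near the background. The lists were chosen with results of these data known. Of 28 DNA damage response genes 1 had such an exon, CHEK1, a checkpoint kinase, at 2.01 in exon 2. In that list MSH6, of DNA mismatch repair, had the lowest median at -0.95 and FANCI, of the Fanconi anaemia pathway, the highest at 0.24. Of 51 chromatin regulators 1 did, MLL3, a histone H3 lysine 4 methyltransferase, at 2.49 in exon 16 beside a facing window at 2.54, among 1200 exons with a median score of -0.17. The lowest of that list was ASXL1, a Polycomb partner, at a median of -1.50, and the highest SMARCC1, a SWI/SNF subunit, at 0.37. Of 38 kinesin and mitotic genes 1 did, the centromeric kinesin CENPE at 2.11 in exon 46. MKI67 had the lowest median of that list and KIF2A, a microtubule-depolymerising kinesin, the highest at 0.47. Of 29 NF-kB genes 1 did, the deubiquitinase CYLD at 2.24 in exon 19. That score was in the last window of the exon, at an input of 0.719, and was 1.97 without centring. In that list TRAF1, a signalling adaptor, had the lowest median at -2.31 and BIRC3, an inhibitor of apoptosis, the highest at 1.07. These scores are relative to the gene's own medians. In the lowest genes of these lists the plain IP over input of the short exons was 0.654 (MSH6), 0.784 (ASXL1), 1.98 (MKI67) and 0.616 (TRAF1). The median of this ratio over all short internal exons was 0.733.

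In the RNA helicase list 3 of 519 short internal exons had a window at 2 or more, against 0.144% of all short internal exons. They were DHX33 exon 10, DDX17 exon 2 and DDX41 exon 16. These 3 exons held all 8 such windows of the 1583 in the list (0.505%, against 0.0797% over all short internal exons). Windows of an exon overlap and are not independent, so the share of windows rests on 3 exons and is given without an interval. DDX17, a splicing coregulator, combined high coverage (IP 492 against input 84.2 in its highest window) with a score of 2.75. The helicase medians ran from -1.53 in DDX24 to 0.34 in DDX41. The proteasome list had 2 such exons of 355, PSMC1 at 2.65 in exon 2 and PSMD11 at 2.63 in exon 13. In windows this was 2 of 955 (0.209%, 0.0254 to 0.754), an interval that holds the 0.0797% of all short internal exon windows. The medians of that list ran from -0.88 in PSMD7 to 0.58 in PSMB7. Among partners of the exon junction complex UPF2, a nonsense-mediated decay factor, reached 2.27 in exon 19, beside a facing window at 2.43. In that list UPF1, the decay helicase, had the lowest median at -0.52 and RNPS1, a splicing activator, the highest at 0.43. None (0) of the short internal exon windows reached 2 in the lists of B cell genes (672 windows, exact upper limit 0.547%), spliceosome and SR factors (1379), ribosomal proteins (759), the respiratory chain (619) and aminoacyl-tRNA synthetases (979), and the exact upper limit of each list lies above the 0.0797% of all short internal exon windows. B cell genes ranged in median score from -1.47 in CIITA, the transactivator of MHC class II genes, to 0.44 in IRF8, an interferon regulatory factor, and ribosomal proteins from -1.22 in RPL28 to 0.99 in RPL27. The plain IP over input of the short exons was 1.09 in CIITA, 1.30 in IRF8, 0.484 in RPL28 and 0.503 in RPL27. The range was -1.32 in U2AF2 to 0.46 in SF3A1 for splicing factors, -0.72 in NDUFA10 to 0.74 in NDUFA5 for the respiratory chain and -0.46 in HARS to 0.29 in NARS for the synthetases.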

How the data were processed

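Coverage was measured in 1 input and 1 IP library. The coverage values are a signal that the authors deposited per window, scaled in a way that is not stated. TopHat 1.1.3 and hg19 appear in the submitters' processing notes; which program and annotation gave the coverage is not stated there or in the labels. The score is a log2 value that the authors deposited; recomputing it from the coverage and the gene medians gave the same values. An isolated read added 37 steps of coverage, which converts coverage to reads. No window carries coordinates, so no sequence is shown.

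Members, exon ratios, neighbours and gene lists used scipy 1.17.1, pandas 2.3.3 and numpy 2.4.6 under Python 3.11.15, with matplotlib 3.10.9 for figures. The scripts were tested on simulated data. Intervals are exact (Clopper-Pearson) for shares, conditional binomial for ratios and order-statistic for medians. The members and lists were chosen with earlier results of these data known. Named were the 15 short internal exons with the highest window score at an input of at least 1, at most 1 a gene; the 5 genes with most member windows; the 8 with the widest gap to a long internal exon; the 5 with the largest share at 2 or more; the highest and lowest gene of each list by median score, among genes with at least 5 such windows; and the m6A machinery. Other genes are marked as chosen later or stand alone in a count. Alternatives were the threshold, the added number, centring, the gene median, the input minimum, window depth and the choice of listing.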

Additional observations from a re-analysis of the deposited data

How the results depend on the processing

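The share of short internal exon windows at 2 or more was 1.58% at a score of 1, 0.00867% at 3, 0.397% with 0.1 added, 0.0219% with 5 added and 0.126% when windows with an input under 5 were left out. The number of exons with such a window was 2276, 12, 710, 29 and 56 in the same settings, and 44 with a minimum mean input of 5, which leaves fewer genes. The median score was -0.14 with 0.1 added, -0.019 with 5 added, -0.24 without centring, -0.0501 and -0.0668 with a minimum mean input of 0.5 and 5, and -0.12 at an input of at least 5. Beside an enriched edge 3.82% of windows reached 2, against 11.4% at a score of 1, 1.54% at 3, 5.14% with 0.1 added, 1.85% with 5 added, 4.96% with a minimum mean input of 5 and 6.64% at an input of at least 5. The enriched edge is defined anew at each threshold and added number, so these shares cover different exons. The share of genes whose short internal exons scored lower than their long ones lay between 94.3% and 96.0% in every setting run for it. Gene medians over the kept listing and the first listing of each gene left the 5 results within their intervals or within 1.5 times the count. The number added pulls scores of thinly covered windows toward 0 by construction, and the cause of the other shifts was not tested. Of the 15 named exons 12 stayed at 2 or more with 5 added, and all 15 with 0.1 added or without centring. No paired analysis was possible because each group holds 1 library.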
